A study of Mus musculus with 7 samples.

Results

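The cyclins and cyclin-dependent kinases described here are Ccnd1, Ccnd2, Ccnd3, Ccne1, Ccne2, Ccna2, Ccnb1, Ccnb2, Cdk1 and Cdk2, taken by gene name from transcript tables of 7 libraries of embryonic mouse retina. 9 of the 10 genes had rows, with 42 of the 55404 transcripts and 9 of the 16143 genes in the tables; Ccnd2 was not analysed here. The retinas came from ICR mice, an outbred stock, at embryonic day 17.5, and were held as explants for 2 days after electroporation. The control group (n = 3 libraries) received a control plasmid and the shKmt2f group (n = 4 libraries) one that makes an shRNA (short hairpin RNA) targeting Kmt2f, another name for the histone methyltransferase gene Setd1a. Both groups also received a separate EGFP plasmid and EGFP-positive cells were sorted, so a library may hold several cell types. The comparison asks how these genes differed when Setd1a was targeted.

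Cyclin-dependent kinases (CDKs) phosphorylate the proteins that carry a cell through its division cycle, and each is active only when bound to a cyclin. D-type cyclins, induced by growth signals, act with Cdk4 and Cdk6 in G1 to inactivate the retinoblastoma protein; E-type cyclins with Cdk2 start DNA synthesis; cyclin A2 works through S phase and G2; and cyclins B1 and B2 with Cdk1 drive entry into mitosis. In the embryonic retina, dividing progenitors carry cyclin D1, and cells that leave the cycle become neurons.

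Expression was measured as TPM, transcripts scaled to a fixed total per library and to transcript length, summed over the transcripts of a gene. Each library held 11840 to 12318 genes at 1 TPM or more; TPM keeps no depth, so the depth behind a value is unknown. Genes were tested with limma on log2(TPM + 1), adjusted over 12456 genes with a threshold of 0.05, and fold changes are on that scale, shKmt2f minus control. The longest listed Setd1a transcript was at 0.767, 0.959 and 0.764 TPM in the control libraries and at 0.407, 0.328, 0.374 and 0.432 TPM in the shKmt2f libraries, which do not overlap (exact permutation test, two-sided, p = 0.0286, the smallest that 3 against 4 libraries allow); it lay below the level needed for limma. The Setd1a sum over transcripts was 8.95 ± 2.36 (SD, n = 3) and 6.94 ± 1.71 (SD, n = 4) TPM, and its groups overlapped. That sum did not pass the test (limma: log2 fold change -0.33, SE 0.23, adjusted p = 0.365). A fall of Setd1a was thus not detected at the level of the gene. The labels do not say that libraries came from separate animals or cultures, so every p-value reflects only how these libraries spread, and that spread may be technical.

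Of the 9 genes measured, 4 were lower in shKmt2f cells, Ccnd1, Ccnb1, Ccnb2 and Cdk1, and 1 was higher, Ccnd3, while 4 did not pass the test, Ccne1, Ccne2, Ccna2 and Cdk2. Across all genes tested, 3.69% were called lower and 10.4% higher; 73.8% of all calls were thus higher. That share was 57.6% with median-ratio scaling, 62.4% with a length-weighted sum, 49.6% with GC correction and 48.8% with GC and length correction; under all 4, 1 member was called higher and 4 lower, or 5 lower with the last. The median log2 fold change was -0.41 over the 9 genes and 0.09 over all genes tested. The fall was steepest for the mitotic B-type cyclins, with Ccnb2 at 35.6% and Ccnb1 at 38.1% of the control mean. Ranges of the groups did not overlap for the same 5 genes, against 9.67% of all genes lower and 19.2% higher without overlap. In sorted cells measured in bulk, fewer cells of a type and less RNA per cell cannot be told apart.

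**Figure D1:**
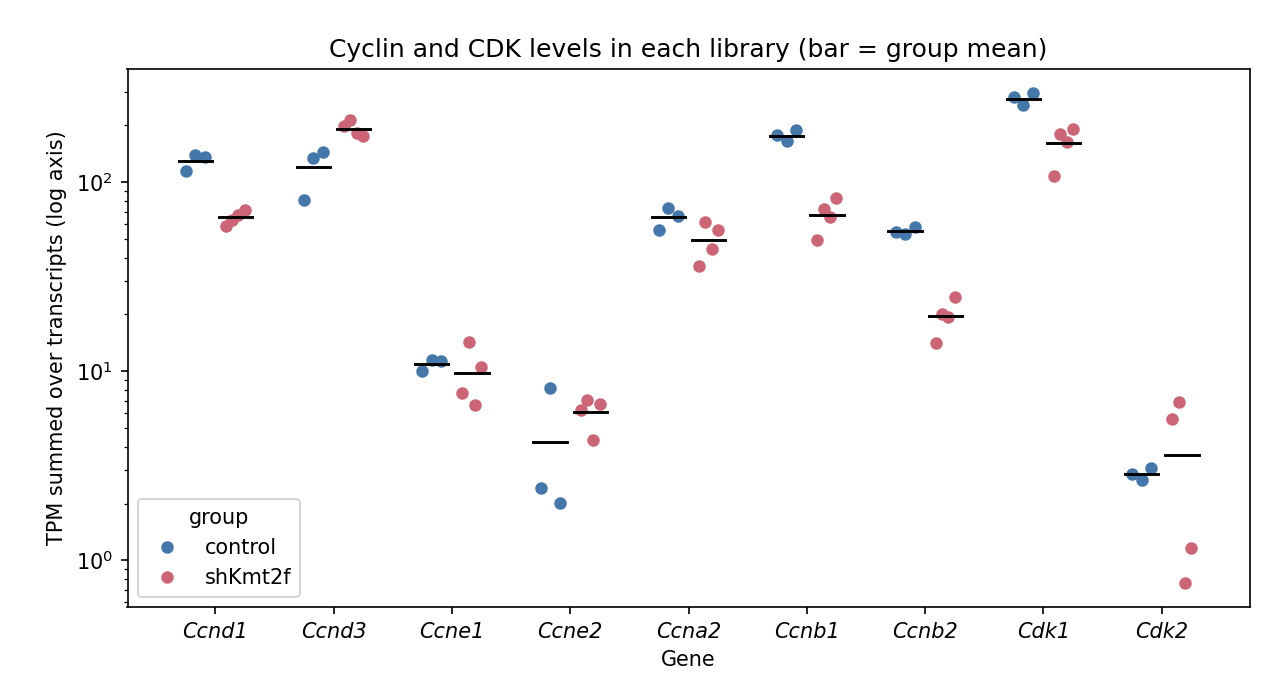
Level of each measured cyclin and CDK gene in each library, as TPM summed over transcripts on a log axis. Points are libraries (3 control in blue, 4 shKmt2f in red) and bars are group means; the groups are apart for Ccnd1, Ccnd3, Ccnb1, Ccnb2 and Cdk1 and overlap for Ccne1, Ccne2, Ccna2 and Cdk2.

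The genes Ccnb1, Ccnb2 and Cdk1, which fell, are shown here with the bases upstream of their RefSeq starts (GRCm38.p6), because they are the mitotic members that moved together; Cdk2 and Ccnd3, which were not called lower, are shown for contrast. Capitals mark matches on either strand to CCAAT (read as ATTGG on the other strand), to the cell cycle homology region CHR (TTTGAA or TTCGAA) or to an E2F element (TTTCCCGC, TTTCGCGC, TTTGCCGC or TTTGGCGC). Each run has 150 bases, 5′ to 3′ on the gene's strand. The Ccnb1 run, chr13:100786571-100786720 (minus strand), ends 84 bases before the RefSeq start, where the longer annotated gene begins. The others are Ccnb2 at chr9:70421555-70421704 (minus), Cdk1 at chr10:69352913-69353062 (minus) and Cdk2 at chr10:128705052-128705201 (minus), each ending at the RefSeq start, and Ccnd3 at chr17:47593286-47593435 (plus). The Ccnd3 run belongs to the inner of its RefSeq starts, near which the coding transcript Ccnd3-205 begins, and ends 31 bases before that start, where another transcript begins.
Ccnb1: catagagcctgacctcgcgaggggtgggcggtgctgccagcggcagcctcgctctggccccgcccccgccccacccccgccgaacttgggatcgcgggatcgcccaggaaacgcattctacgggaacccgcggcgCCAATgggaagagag
Ccnb2: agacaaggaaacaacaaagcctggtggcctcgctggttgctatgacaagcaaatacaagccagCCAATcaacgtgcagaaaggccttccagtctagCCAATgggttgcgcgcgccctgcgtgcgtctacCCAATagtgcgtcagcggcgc
Cdk1: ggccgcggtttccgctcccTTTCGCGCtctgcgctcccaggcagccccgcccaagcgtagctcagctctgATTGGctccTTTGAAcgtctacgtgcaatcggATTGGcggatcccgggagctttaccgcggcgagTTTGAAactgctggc
Cdk2: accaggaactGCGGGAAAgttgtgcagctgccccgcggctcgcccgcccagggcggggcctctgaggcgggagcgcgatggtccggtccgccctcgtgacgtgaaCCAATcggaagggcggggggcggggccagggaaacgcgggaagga
Ccnd3: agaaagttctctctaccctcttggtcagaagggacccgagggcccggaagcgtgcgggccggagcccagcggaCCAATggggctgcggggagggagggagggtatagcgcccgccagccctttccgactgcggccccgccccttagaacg

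CCAAT is bound by the factor NF-Y, CHR elements by the DREAM and MuvB complexes, and both are known from promoters of mitotic genes. In the 250 bases upstream of the start, Ccnb1 held 2 CCAAT matches, Ccnb2 held 3 and Cdk1 held 3. These were the members with more than 1, 3 of 7 promoters of 6 matched genes. In the reference table, 10.1% of 32851 promoters hold at least 2. The plan named only the presence of a motif. The cut at 2 was not part of it, so these shares only describe the promoters. Cdk2 and the inner start of Ccnd3 held 1 CCAAT match each, and the outer start of Ccnd3 and Ccne1 held none of the motifs. At least 1 CCAAT was in 5 of the 7 promoters and in 33.8% of all. CHR letters were in 2 of 7, Ccnb2 and Cdk1, against 17.1% of all promoters, and an E2F element in 2 of 7, Cdk1 and Cdk2, against 1.86%. The Cdk1 window held CHR letters at 15 to 10 and at 71 to 66 bases before the start. An annotated Cdk1 transcript begins 26 bases before that RefSeq start, so the nearer match lies past its beginning. Likewise 1 of the 2 Ccnb1 CCAAT matches, at 67 to 63 bases before the start, lies inside the longer annotated gene and outside the run shown. The Ccnb2 match lay farther out, at 167 to 162 bases before the start, outside the run shown. Over 300 bases, a window added after the data were seen that includes the first transcribed bases, Ccnb2 had a further TTTGAA at bases 5 to 10 after its start, and 19.2% of promoters held CHR letters. Promoters of Ccnd1, Ccna2 and Ccne2 were not analysed here. A match is a run of letters and not a shown binding site.

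Among the D-type cyclins, Ccnd1 fell and Ccnd3 rose. Ccnd1 (ENSMUSG00000070348, chromosome 7, 144929931 to 144939925, minus strand) encodes cyclin D1, the G1 cyclin of retinal progenitors. It was at 115, 139 and 136 TPM in the control libraries and at 58.7, 63.5, 67.2 and 71.4 TPM in the shKmt2f libraries. Every shKmt2f library was below every control library, and the mean went from 130.0 ± 13.5 (SD, n = 3) to 65.2 ± 5.41 TPM (SD, n = 4), 50.2% of control. In limma the log2 fold change was -0.98 with an SE of 0.12 and an adjusted p of 0.00605. The call held in all 19 alternatives run for it, with adjusted p up to 0.0350.

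Ccnd3 (chromosome 17, 47505051 to 47599691, plus strand) encodes cyclin D3, a D-type cyclin that many differentiating tissues keep. It was at 80.4, 134 and 145 TPM in the control libraries and at 199, 213, 182 and 176 TPM in the shKmt2f libraries. The groups did not overlap, and control library 1 was far below the other control libraries. The mean rose from 119.7 ± 34.5 (SD, n = 3) to 193 ± 16.8 TPM (SD, n = 4), 161% of control (limma: log2 fold change 0.72, SE 0.19, adjusted p = 0.0428). This call was close to the threshold: it was lost without any one library except control 2 (adjusted p from 0.0604 to 0.103), and without control 1 the log2 fold change was 0.46.

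The balance between these D-type cyclins differed between the groups as a within-library share, a ratio that no scaling of the library can alter. Ccnd1 made up 58.8%, 51.1% and 48.4% of the summed Ccnd1 and Ccnd3 TPM in the control libraries and 22.8%, 23.0%, 27.0% and 28.8% in the shKmt2f libraries. The groups were far apart, with means of 52.7% ± 5.37 (SD, n = 3) and 25.4% ± 3.01 (SD, n = 4), a difference of -27.4 percentage points (exact permutation test, two-sided, p = 0.0286, the smallest possible). Ccnd1 was above Ccnd3 in 2 of 3 control libraries and in 0 of 4 shKmt2f libraries. With protein-coding transcripts only, Ccnd1 was below Ccnd3 in all 7 libraries. It made up 24.1% to 34.3% in control and 8.76% to 13.3% in shKmt2f libraries, a difference of -17.5 points (exact permutation p = 0.0286). The Ccnd3 coding sum includes short fragments, such as Ccnd3-213 (277 bases) and Ccnd3-219 (336 bases). The main coding transcripts had another order in control libraries: Ccnd1-201 at 41.8, 50.3 and 46.0 TPM, above Ccnd3-205 at 21.8, 23.7 and 25.3 TPM. In shKmt2f libraries Ccnd1-201 was at 19.1 to 27.3 TPM, below Ccnd3-205 at 39.3 to 43.7 TPM. With the longest listed transcript in place of the sum, which for Ccnd3 is a retained-intron transcript under 1 TPM, the difference was -0.678 points (exact p = 0.143).

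Of the E-type cyclins, neither gene passed the test. Ccne1 (chromosome 7, 38097984 to 38107534, minus strand), the cyclin E1 gene, was at 9.99, 11.5 and 11.4 TPM in the control libraries and at 7.69, 14.3, 6.60 and 10.6 TPM in the shKmt2f libraries. The shKmt2f libraries lay on both sides of the controls (limma: log2 fold change -0.20, SE 0.24, adjusted p = 0.610). Ccne2 (chromosome 4, 11191351 to 11204779, plus strand), the cyclin E2 gene, was at 2.41, 8.21 and 2.02 TPM in the control libraries and at 6.23, 7.06, 4.33 and 6.73 TPM in the shKmt2f libraries. Control library 2 was above every shKmt2f library and the other controls were below them all. In limma the log2 fold change was 0.62 with an SE of 0.37 and an adjusted p of 0.285, and without control 2 it was 1.13 (adjusted p = 0.00707). It was below 0 after correction for GC content (-0.20). Ccne2 shares 609 of its 3495 exon bases with Ints8, an Integrator subunit gene on the opposite strand, whose control libraries were at 26.4, 58.6 and 29.5 TPM and whose shKmt2f libraries were at 68.1 to 78.7 TPM. Ints8 was called higher (limma: log2 fold change 1.00, adjusted p = 0.0347) and was, like Ccne2, highest among the controls in library 2. Whether the library preparation kept strand is not given in the sources used here, so reads of the pair may not be told apart; the part of Ints8 in the Ccne2 values was not tested.

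Ccna2 (chromosome 3, 36564865 to 36572150, minus strand) encodes cyclin A2, which acts in S phase and G2. It was at 56.2, 73.4 and 66.2 TPM in the control libraries and at 36.2, 61.7, 44.3 and 56.2 TPM in the shKmt2f libraries. The groups overlapped, with means of 65.3 ± 8.66 (SD, n = 3) and 49.6 ± 11.6 TPM (SD, n = 4), 76.0% of control (limma: log2 fold change -0.41, SE 0.19, adjusted p = 0.178). Corrected for GC content and length, it had a log2 fold change of -0.68 (adjusted p = 0.0320), the only alternative of 19 that gave a call; with GC content alone the adjusted p was 0.0514, and with protein-coding transcripts only the log2 fold change was -0.20 (0.555).

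The B-type cyclins, which activate Cdk1 for mitosis, fell together. Ccnb1 (chromosome 13, 100778650 to 100786570, minus strand) was at 177, 165 and 188 TPM in the control libraries and at 49.3, 71.8, 65.4 and 82.4 TPM in the shKmt2f libraries. The highest shKmt2f library had less than any control, and the mean fell from 176 ± 11.5 (SD, n = 3) to 67.2 ± 13.8 TPM (SD, n = 4), a limma log2 fold change of -1.40, SE 0.17, with an adjusted p of 0.00617. Ccnb2 (chromosome 9, 70407692 to 70421547, minus strand) was at 54.6, 53.2 and 57.7 TPM in the control libraries and at 14.2, 20.2, 19.4 and 24.8 TPM in the shKmt2f libraries. Its controls lay within a narrow range that no shKmt2f library reached, with means of 55.2 ± 2.29 (SD, n = 3) and 19.6 ± 4.35 TPM (SD, n = 4) and a limma log2 fold change of -1.47, SE 0.17, with an adjusted p of 0.00617. Ccnb2 kept its call in all 19 alternatives and Ccnb1 in 18, the exception being the longest transcript alone (adjusted p = 0.0745). Their ratio moved little: Ccnb1 was 76.2% ± 0.490 (SD, n = 3) of the B-type TPM in controls and 77.4% ± 0.537 (SD, n = 4) in shKmt2f cells (difference 1.27 percentage points, exact permutation test, two-sided, p = 0.0571). With protein-coding transcripts only, the difference was 0.192 points (exact p = 0.543).

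The kinases differed in level and in response. Cdk1 (chromosome 10, 69335146 to 69352938, minus strand), the mitotic kinase, was at 281, 255 and 295 TPM in the control libraries and at 108, 181, 163 and 191 TPM in the shKmt2f libraries. All shKmt2f libraries were below the controls, library 1 the farthest, and the mean fell from 277 ± 20.2 (SD, n = 3) to 161 ± 37.0 TPM (SD, n = 4), 58.1% of control (limma: log2 fold change -0.81, SE 0.19, adjusted p = 0.0312). The call was lost without control 1 (adjusted p = 0.0973), control 3 (0.0916), shKmt2f 2 (0.0621) or shKmt2f 3 (0.0630), and the log2 fold change stayed between -0.93 and -0.63 in all alternatives. Cdk2 (chromosome 10, 128697939 to 128705031, minus strand), partner of the E- and A-type cyclins, was at 2.86, 2.66 and 3.10 TPM in the control libraries and at 5.61, 6.87, 0.762 and 1.17 TPM in the shKmt2f libraries. The shKmt2f libraries split to both sides of the tight controls, libraries 1 and 2 above and libraries 3 and 4 below (limma: log2 fold change -0.04, SE 0.52, adjusted p = 0.968). The mean difference near 0 thus describes none of these libraries. Atoh7, a marker named after its values were seen, divided the same libraries, at 20.4, 37.3, 429 and 428 TPM. What sets these libraries apart was not tested. Cdk1 made up 99.0% of the summed Cdk1 and Cdk2 TPM in controls and 97.6% ± 2.23 (SD, n = 4) in shKmt2f cells (difference -1.39 points, exact permutation test, two-sided, p = 0.429; -6.50 points and 0.371 with protein-coding transcripts only).

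**Figure D2:**
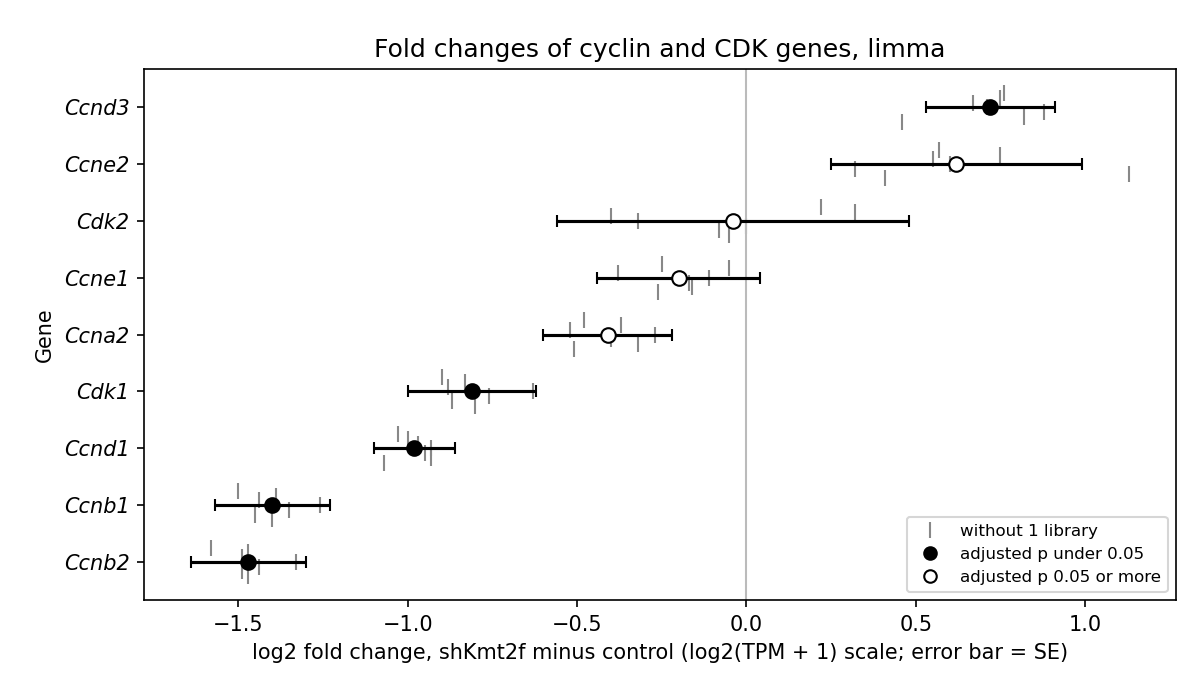
Log2 fold change of each gene, shKmt2f minus control, from limma on log2(TPM + 1), with its SE as the error bar; filled points passed an adjusted p of 0.05 and open points did not. Grey ticks are the fold changes with 1 library left out; those of Ccnd1, Ccnb1, Ccnb2 and Cdk1 all lie below 0, and those of Cdk2 lie on both sides.

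TPM is scaled by transcript length, so genes can be ordered within a library, but the order depends on which transcripts are summed. Cdk1 ranked 1 and Ccnb1 ranked 2 in all 3 control libraries, with Ccnd1 and Ccnd3 at ranks 3 and 4 in either order. In the shKmt2f libraries, Ccnd3 ranked 1 in 3 of 4 and stood next below Cdk1 in the other. Ccnd3 was above Ccnb1 in 0 of 3 control and 4 of 4 shKmt2f libraries. Ccnd1 and Ccnb1 were close in shKmt2f cells, with Ccnd1 above in 2 of 4 libraries. Ccna2 ranked 5, Ccnb2 ranked 6 and Ccne1 ranked 7 in all 7 libraries, and Ccne2 and Cdk2 were the lowest pair in each. This order rests on the retained-intron and other transcripts described below and turns when protein-coding transcripts alone are summed. Then Ccnb1 ranked 1, Ccnd3 ranked 2 and Ccnb2 ranked 3 in all 3 control libraries, and Cdk1 ranked 4 or 5. In all 4 shKmt2f libraries Ccnd3 then ranked 1 and Ccnb1 ranked 2, with Cdk1 at rank 3 or 4. The coding sum of Ccnd3 still includes short fragments. Its full-length Ccnd3-205 alone had a control mean of 23.6 TPM, below Ccnb2-201 (55.2), Ccnd1-201 (46.0) and Cdk1-202 (45.8). In shKmt2f cells the Ccnd3-205 mean was 41.0 TPM, above the single transcripts Ccnb1-202 (30.9) and Cdk1-202 (26.5). It was below the Ccnb1 coding sum (56.7), which also holds Ccnb1-207 (21.9). Within the shKmt2f group, library 1 was the lowest for Ccnd1, Ccna2, Ccnb1, Ccnb2 and Cdk1, and library 4 the highest for Ccnd1, Ccnb1, Ccnb2 and Cdk1.

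Single transcripts were tested with the same model over 37024 transcripts, of which 0.794% were called lower and 1.44% higher. Of the 42 transcripts of these genes, 26 were abundant enough to test; 6 fell and 1 rose. For Ccnd1, the protein-coding Ccnd1-201 (3740 bases) fell from 46.0 ± 4.25 (SD, n = 3) to 23.8 ± 4.08 TPM (SD, n = 4; limma: log2 fold change -0.94, adjusted p = 0.0362). The 470-base retained-intron transcript Ccnd1-202 fell from 82.3 ± 9.62 to 39.8 ± 1.89 TPM (-1.02, adjusted p = 0.0108). It held 63.3% of Ccnd1 TPM in controls and shares 79.8% of its bases with Ccnd1-201. Another retained-intron transcript, Ccnd1-203, was at 1.65 TPM in controls and 1.64 TPM in shKmt2f cells (adjusted p = 0.98).

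For Ccnd3, the full-length coding transcript Ccnd3-205 (1977 bases) was at 21.8, 23.7 and 25.3 TPM in the control libraries and at 40.3, 43.7, 40.5 and 39.3 TPM in the shKmt2f libraries. It rose without overlap between the groups (limma: log2 fold change 0.77, SE 0.10, adjusted p = 0.0202), and control library 1 was not set apart here. The low Ccnd3 sum of control 1 lay mainly in the 277-base coding fragment Ccnd3-213, at 10.9, 43.6 and 48.4 TPM in the control libraries and at 45.5 to 57.7 TPM in the shKmt2f libraries (adjusted p = 0.304). Of the other Ccnd3 fragments, Ccnd3-219 was at 163% of control (adjusted p = 0.0747), Ccnd3-210 at 207% (0.0811), Ccnd3-208 at 215% (0.114) and Ccnd3-217 at 108% (0.957).

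For Ccnb1, both main coding transcripts fell: Ccnb1-202 (2140 bases) from 83.4 ± 4.55 (SD, n = 3) to 30.9 ± 6.0 TPM (SD, n = 4; limma: log2 fold change -1.42, adjusted p = 0.0132), and Ccnb1-207 (1182 bases) from 64.6 ± 2.96 to 21.9 ± 4.74 TPM (-1.54, adjusted p = 0.0131). The retained-intron Ccnb1-204 fell from 11.7 to 5.28 TPM (-1.03, adjusted p = 0.0430). The coding Ccnb1-201 was at 38.8% of control with overlapping groups (adjusted p = 0.112), and the retained-intron Ccnb1-203 was at 4.28 and 4.00 TPM (adjusted p = 0.978). Ccnb2 has 1 listed transcript, Ccnb2-201, which holds the whole gene value (adjusted p over transcripts 0.0140).

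For Cdk1, most TPM was in short retained-intron transcripts, Cdk1-203 (378 bases, 54.9% of control Cdk1 TPM) and Cdk1-204 (475 bases, 27.8%), which share 95.0% and 86.7% of their bases with the coding Cdk1-202. Cdk1-203 was at 152 ± 14.5 (SD, n = 3) and 88.9 ± 18.4 TPM (SD, n = 4), and Cdk1-202 at 45.8 ± 4.25 and 26.5 ± 6.81 TPM. These 3 transcripts had groups that did not overlap and 57.9% to 58.4% of the control level, but none passed limma over all transcripts (adjusted p from 0.0600 to 0.0796). Summed over coding transcripts only, Cdk1 went from 47.5 to 27.2 TPM and passed among genes (limma: log2 fold change -0.82, adjusted p = 0.0291), and the same 4 genes were called lower and the same 1 higher.

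For Ccna2, the transcript annotated for nonsense-mediated decay, Ccna2-203, was at 39.1 ± 3.43 (SD, n = 3) and 26.2 ± 5.31 TPM (SD, n = 4; limma adjusted p = 0.0923), and the coding Ccna2-201 at 23.7 ± 3.98 and 21.0 ± 5.30 TPM (0.646). Ccna2-204 was at 2.05 and 2.25 TPM (0.813). The Ccne1, Ccne2 and Cdk2 transcripts above 1 TPM, Ccne1-201, Ccne1-205, Ccne2-202 and Cdk2-201, had overlapping groups and adjusted p from 0.328 to 0.894. In the authors' deposited table, with effects on a natural log scale, Ccnb2-201 had an effect of -1.13 (q = 6.26e-12), Ccnb1-202 of -1.09 (q = 4.21e-13), Ccnd1-201 of -0.75 (q = 4.36e-07) and Ccnd3-205 of 0.47 (q = 1.07e-04). That deposited table gave Cdk1-202 an effect of -0.66 (q = 0.0118) and Ccna2-203 of -0.50 (q = 3.32e-04), both past 0.05 there and not in limma.

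The share of a gene's TPM in transcripts not annotated as protein-coding was compared for 8 genes, a comparison chosen after the data were seen. For Ccnb1 it was 11.6%, 8.99% and 10.6% in the control libraries and 15.5%, 16.5%, 16.3% and 14.6% in the shKmt2f libraries. The groups did not overlap (means 10.4% ± 1.31 and 15.7% ± 0.858; exact permutation test, two-sided, p = 0.0286, adjusted over the 8 genes 0.0763). Cdk2, at 47.8% ± 9.69 and 19.7% ± 10.5, and Ccnd3, under 1% in every library, also had groups without overlap and the same p. For Cdk1 it was 82.9% and 83.2% (exact p = 0.486) and for Ccnd1 64.5% and 63.8% (exact p = 0.743). None of the 8 passed after adjustment. Salmon divides reads among transcripts that share bases, so these shares are estimates.

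**Figure D3:**
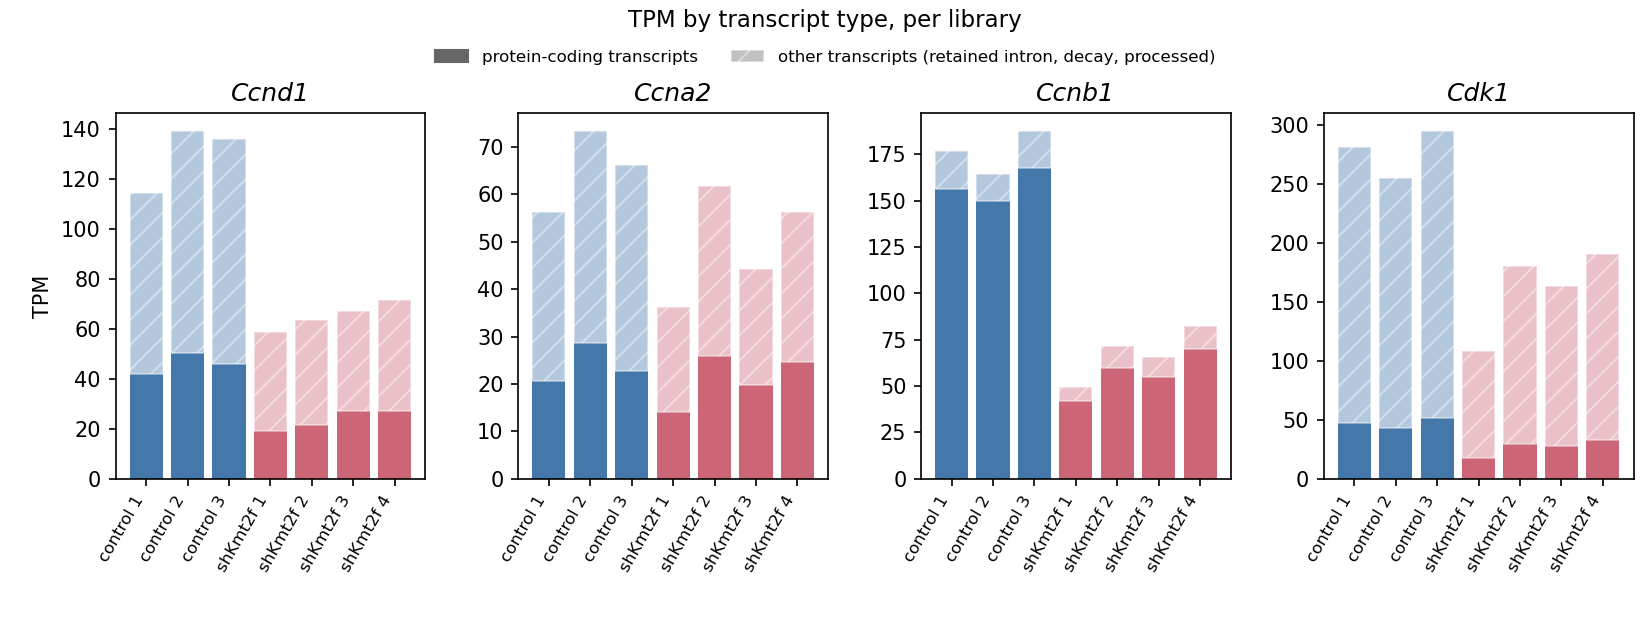
TPM of Ccnd1, Ccna2, Ccnb1 and Cdk1 in each library (control in blue, shKmt2f in red), with protein-coding transcripts as solid bars and other transcripts stacked above them as hatched bars. Most Cdk1 and Ccnd1 TPM is in other transcripts in every library, and most Ccnb1 TPM is in coding ones.

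The rest of the pathway is described by lists, with counts from the same fit. Over all genes tested, 3.69% were called lower and 10.4% higher, and counts near these shares say little of a list. Of 16 other cyclins tested, 6 were called higher and 1 lower (median log2 fold change 0.36). Ccng2, an atypical cyclin linked to cell cycle arrest, was at 87.6, 108 and 108 TPM in the control libraries and at 161, 197, 159 and 157 TPM in the shKmt2f libraries (limma: log2 fold change 0.73, adjusted p = 0.0154). Its groups did not overlap, and the call held in all 7 fits with 1 library left out, by little without control 1. Ccnc, the Mediator cyclin, rose from 32.6 ± 8.26 to 54.3 ± 4.05 TPM (adjusted p = 0.0272) and Ccni from 138 ± 8.27 to 198 ± 19.2 TPM (adjusted p = 0.0249). With 1 library left out, Ccnc kept its call in 1 of 7 fits and Ccni in 2. Both lost their calls after correction for GC content and length (0.269 and 0.222). The 1 called lower was Ccna1, the germline A-type cyclin, at 2.28 ± 1.09 and 0.276 ± 0.201 TPM; it reached 1 TPM in control libraries alone, and so entered the test only through the group where it is high. The other three called higher, named after their values were seen, were Ccng1, Ccnl1 and Ccnt2. With values corrected for GC content and length, 2 of the other cyclins were called higher.

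Of 15 other CDKs, 1 rose and 1 fell (median -0.01). Cdk4, the main D-cyclin partner, was the most abundant kinase of this list, at 1399 ± 136 TPM (SD, n = 3) in controls and 1318 ± 37.2 TPM (SD, n = 4) in shKmt2f cells, with overlapping groups (limma adjusted p = 0.582); it was named after its values were seen. Cdk17 rose from 43.4 ± 5.12 to 75.3 ± 17.9 TPM (adjusted p = 0.0342) and Cdk20 fell from 6.39 ± 0.440 to 3.37 ± 1.03 TPM (adjusted p = 0.0446). Cdk20 lost its call in each of the 7 fits with 1 library left out (adjusted p up to 0.123) and with the GC and length correction (0.0663), and Cdk17 kept it in 2 of the 7.

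Of 5 CDK inhibitors tested, only Cdkn2c passed (median -0.22). Cdkn2c encodes p18, which blocks Cdk4 and Cdk6, and fell from 13.7 ± 1.14 to 6.68 ± 1.30 TPM (limma: log2 fold change -0.95, adjusted p = 0.0160). Of 6 activators and subunits, 3 fell and none rose (median -0.62). These were the phosphatase genes Cdc25b and Cdc25c, whose products remove inhibitory phosphates from CDKs, and Cks2, a small CDK-binding subunit. Cdc25c went from 19.1 ± 2.17 to 8.31 ± 1.64 TPM (log2 fold change -1.13, adjusted p = 0.0129) and kept its call in all 7 fits with 1 library left out. Cdc25b went from 61.6 ± 15.9 to 30.8 ± 5.74 TPM (-0.97, adjusted p = 0.0243) and Cks2 from 135 ± 18.5 to 69.3 ± 15.1 TPM (-0.96, adjusted p = 0.0193). Of the 2 inhibitory kinases, Pkmyt1, which holds Cdk1 inactive, fell from 10.1 ± 0.670 to 5.06 ± 0.967 TPM (-0.88, adjusted p = 0.0180); Wee1 was at 6.26 and 4.71 TPM and did not pass. With 1 library left out, the calls were kept in 4 of 7 fits for Cdkn2c and for Cks2, 3 for Pkmyt1 and 2 for Cdc25b, the largest adjusted p being 0.0676.

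Of 7 genes of cyclin turnover, 3 fell and none rose (median -0.21). Cdc20, the activator of the anaphase-promoting complex that marks B-type cyclins for destruction, was at 295, 253 and 325 TPM in the control libraries and at 89.8, 122, 105 and 122 TPM in the shKmt2f libraries. The groups were far apart (limma: log2 fold change -1.40, SE 0.14, adjusted p = 0.00322). Ube2c, an E2 enzyme of the same complex, fell from 136 ± 14.0 to 60.3 ± 8.26 TPM (-1.17, adjusted p = 0.00605). Cdc20 and Ube2c kept their calls in all 7 fits with 1 library left out. Ube2s, the chain-elongating E2, fell from 243 ± 22.6 to 173 ± 16.4 TPM (-0.49, adjusted p = 0.0306), and kept the call in 1 of these fits; after correction for GC content and length it was at -0.27 (adjusted p = 0.133).

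Among regulators of cyclin transcription, few genes passed. Of 6 pocket proteins and E2F activators, only Rb1, the retinoblastoma gene, was called, rising from 65.7 ± 15.7 to 109 ± 16.7 TPM (median of the list 0.12; adjusted p = 0.0347). The calls of this list turned with the processing: 3 lower and 0 higher after correction for GC content and length, 2 and 0 with the length-weighted sum, and 2 and 1 with median-ratio scaling. Of 6 G2/M transcription factors (median 0.11), Mybl2 fell from 9.90 ± 1.44 to 5.02 ± 1.19 TPM (limma: log2 fold change -0.87, adjusted p = 0.0287) and Lin9, a MuvB subunit, rose from 6.80 ± 3.83 to 14.8 ± 2.01 TPM (1.12, adjusted p = 0.0407). Each of these 3 calls was kept in 1 of 7 fits with 1 library left out, the one without control 2, and Rb1 and Lin9 lost theirs after correction for GC content and length. Of 10 proliferation markers, 4 fell, none rose and 6 did not pass (median -0.47), so the list did not fall as a whole. Of these 6, Top2a was at 106% of control, Rrm1 at 114% and Mki67 at 83.4%. Mcm2 was at 84.9%, Mcm3 at 71.4% and Mcm5 at 71.5%. Birc5, a mitotic gene, fell from 98.9 ± 13.7 to 48.5 ± 9.44 TPM (limma: log2 fold change -1.03, adjusted p = 0.0143). It kept the call in 6 of 7 fits with 1 library left out. The S-phase genes Mcm6 (adjusted p = 0.0319), Tyms (0.0364) and Pcna (0.0484) stood at 66.0%, 66.9% and 70.7% of control. With 1 library left out, Pcna kept its call in 0 of 7 fits, and Mcm6 and Tyms in 2 each; Tyms was at an adjusted p of 0.0566 after correction for GC content and length.

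**Figure D4:**
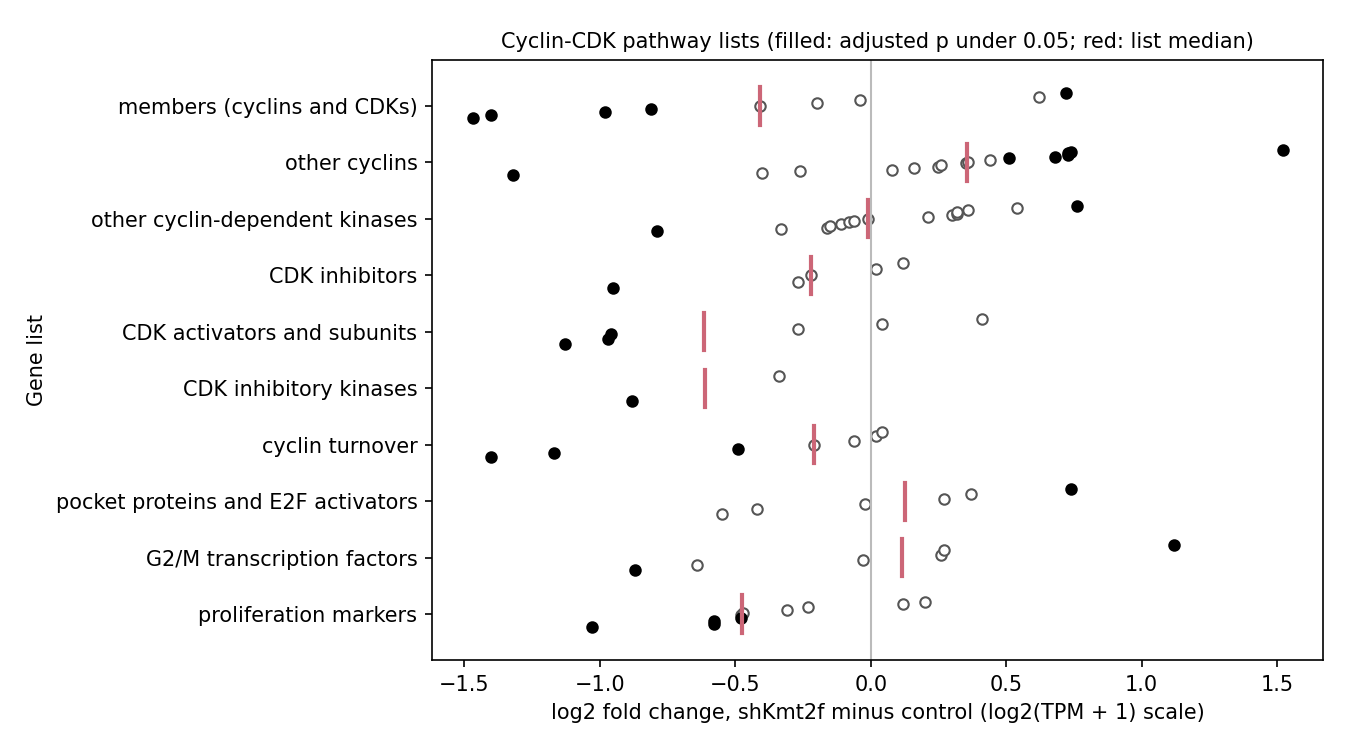
Log2 fold change (shKmt2f minus control, log2(TPM + 1) scale) of every tested gene of each list, one point a gene, filled where the adjusted p was under 0.05, with the list median as a red bar. Points of the CDK activators and subunits, cyclin turnover and proliferation lists that passed the test lie below 0, and 6 of the 7 filled other cyclins lie above it.

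Marker lists of retinal cell types are given here beside these genes. The shares called over all genes were again 3.69% lower and 10.4% higher. Retinal progenitor markers (13 tested) summed to 1138 to 1458 TPM in control and 1044 to 1194 TPM in shKmt2f libraries, with 1 of 13 called, Hes5, lower. Photoreceptor markers (4 of 9 tested rose) summed to 449.8 to 561 and 701 to 931 TPM, which do not overlap. Most of that sum was Otx2, at 370.0 and 558 TPM. The others called were Crx, Prdm1 and Gnat2. Of the 5 not called, Nrl was at 94.3% of control, Nr2e3 at 93.5%, Rxrg at 95.5%, Thrb at 109.8% and Rcvrn at 206%. Ganglion cell markers (6 of 7 tested called higher) summed to 74.0 to 115 and 114 to 142 TPM, amacrine and horizontal markers (2 of 8 called higher) to 101 to 121 and 118 to 146 TPM, and neurogenic progenitor markers (3 of 10 rose, 1 fell) to 1967 to 2598 and 2529 to 2863 TPM. The sums overlap for the progenitor, ganglion, amacrine and horizontal, and neurogenic lists. Isl1, Nefl and Onecut1, which were called higher, reached 1 TPM in fewer than 3 control libraries, so they entered the test only through the group where they are high. Of the 12 ganglion cell markers, 5 were not tested. Among these, Pou4f1 was at 0.191 and 0.424 TPM, Pou4f2 at 0.0446 and 0.0664, Rbpms at 0.732 and 0.858, and Sncg at 0.340 and 0.231. Most of the ganglion sum was Stmn2, at 69.2 and 81.0 TPM, which was not called. Of 7 pigment epithelium markers, 3 were analysed here, with sums of 3.80 to 4.42 and 5.67 to 7.62 TPM. Only Dct was tested, and it rose from 3.93 to 6.75 TPM, nearly all of the sum. Pmel (0.173 and 0.0849 TPM) and Tyrp1 (0.0801 and 0.225 TPM) were far below it, so the sum says little of pigment epithelium. Endothelial markers summed to 62.3 to 105 and 72.7 to 109 TPM with none of 2 called. Nearly all of that sum was Kdr (61.0 and 66.6 TPM) and Cldn5 (23.9 and 20.6 TPM). Pecam1 (0.0737 and 0.111 TPM) and Tie1 (0.0486 and 0.0666 TPM) were far below 1 TPM, so the sum says little of endothelial cells. Markers of astrocytes and mesenchyme summed to 1.04 to 1.99 and 0.826 to 2.85 TPM with none of 1 called. Of 7 microglia markers, 1 was analysed here, C1qa, at up to 1.54 TPM; of 7 red blood cell markers, 1, Slc4a1, at up to 0.12 TPM; and of 6 lens markers, 3, which summed to up to 0.502 TPM, so these say little of those cells. The part of these marker differences in the values of the cyclins and CDKs was not tested.

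Opposite-strand neighbours of the other genes did not pass the test. Ccnd1 shares 1100 of its 4709 exon bases with Oraov1, at 49 ± 6.46 and 48.6 ± 6.12 TPM (limma adjusted p = 0.971). Ccna2 shares 510 of 4083 with Exosc9, at 99.8 ± 11.2 and 104 ± 5.69 TPM (0.712), and Ccnd3 shares 361 of 8775 with Bysl, at 10.1 ± 2.18 and 9.95 ± 1.32 TPM (0.978). Cdk2 shares 34 of 6219 with Pmel, which was below the level tested. No exon overlap was found for Ccne1, Ccnb1, Ccnb2 or Cdk1.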

How the data were processed

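Salmon 0.11.3, sleuth 0.30.0 and genome build GRCm38.p6 are named in the submitters' processing notes. Per the labels' protocols, cDNA came from 1 ng of RNA (SMART-Seq v4). The authors deposited TPM per transcript, 1 table a library (55475 rows, 71 without TPM, totals 991445 to 992309), and beside it a p-value, a q-value and an effect on a natural log scale, the same in all 7 tables.

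TPM was summed per gene (16143 genes). The 12456 genes that reached 1 TPM in 3 or more libraries entered limma (version 3.58.1, R 4.3.3) as log2(TPM + 1), with trend and robust set, a group term alone and Benjamini-Hochberg adjustment; transcripts likewise. Exact permutation tests were two-sided over 35 splits, on log2(TPM + 0.1) for transcripts and log2(TPM + 1) for genes. Positions and transcript types are from GENCODE for GRCm38 (55341 transcripts matched) and promoters from RefSeq. The model was tested on simulated data.

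The members and lists were chosen with earlier results of these data known. Named were all members, their transcripts whose mean reached 1 TPM, and up to 4 genes of each pathway list with the smallest adjusted p among those past 0.05. The D-type share was planned with Ccnd2 and was computed without it. Alternatives were median-ratio scaling, filters of 0 and 5 TPM, a pseudocount of 0.1, loess corrections (span 0.3) for GC content and length, the replicate number as a block, other sums over transcripts, plain limma and leaving out each library.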

Additional observations from a re-analysis of the deposited data

Results flagged for a closer look

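Among 58 values tested in groups of 4 libraries, 1 stood apart from the rest of its group. Ccng2 was at 197 TPM in shKmt2f library 2 and at 157 to 161 TPM in the other shKmt2f libraries, a gap of 0.887 of the group's range, past Dixon's 95% critical value for 4 libraries. Chance flags about 1 group in 20.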

How the results depend on the processing

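Ccnd1 and Ccnb2 kept their calls in all 19 alternatives, Ccnb1 in 18 of 19, Cdk1 in 13 of 18 and Ccnd3 in 9 of 18. All genes called numbered 1755, and 283 to 3004 with 1 library left out (3004 without control 2), 893 with the longest transcript only and 306 with the replicate block and GC and length correction. Under median-ratio scaling the median over all genes shifted by -0.11 and the share of calls that were higher from 73.8% to 57.6% (1946 calls), with the same member counts; that share was 49.6% with GC correction (633 higher, 643 lower) and 48.8% with GC and length correction (652 higher, 683 lower). Members called lower were 4, 3 to 4 with 1 library left out and 2 of 5 tested with the longest transcript only. Members called higher were 1, 0 to 2 with 1 library left out, and 0 with plain limma, no filter, the longest transcript only, and the replicate block with GC and length correction. The median of the members, -0.41, was -0.68 with GC and length correction, -0.61 with GC correction, -0.61 with the 5 TPM filter, -0.94 with the longest transcript only, -0.20 with protein-coding transcripts only and -0.75 with the replicate block and GC and length correction. Ccne2 turned to -0.20 with GC correction, -0.31 with GC and length correction and -0.34 with the replicate block added. Cdk2, near 0, turned to 0.11 with the length-weighted sum, 0.35 with protein-coding transcripts only, 0.22 with the replicate block, 0.09 with the block and both corrections, 0.32 without shKmt2f replicate 3 and 0.22 without shKmt2f replicate 4 (range with 1 library left out -0.40 to 0.32). Member transcripts called lower numbered 6, 1 to 7 with 1 library left out (1 without control 1, 3 without shKmt2f 3), and those called higher 1, 0 to 2 likewise; with the replicate block both were 0. The Ccnd1 share of D-type TPM differed by -29.5 to -24.4 points with 1 library left out, at p of 0.0667 or 0.1, the smallest those designs allow, by -17.5 with protein-coding transcripts only and by -0.678 with the longest transcript only; the Ccnb1 share differed by 0.957 (exact permutation p = 0.0286) with the length-weighted sum and by 0.192 (0.543) with protein-coding transcripts only. In the nearest 100 bases, CHR letters were in 1, E2F elements in 0 and CHR with CCAAT in 1 of 7 promoters, in place of 2 each. Except where fewer genes or libraries entered, the cause was not tested.

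Deviations of same-numbered libraries from their group means were weakly correlated over all genes tested (0.079, 0.065 and 0.060). Differently numbered libraries were not compared, so these values cannot decide whether the numbers mark pairs. Under the replicate block 1377 genes were called, with 4 members lower and 1 higher. Adding pseudogene copies was not run, since none of 1521 pseudogene transcripts matched a member at 90% identity over 50% of its length. TPM without depth limits what can be said of Ccne2 and Cdk2, the lowest members.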
